A study of Mus musculus with 18 samples.

Results

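Lipid-associated macrophages of the scarred liver are recognized by a small set of transcripts, and 10 of these, Trem2, Gpnmb, Cd9, Cd63, Spp1, Lgals3, Lpl, Fabp5, Itgax and Mmp12, were followed here among the 16245 genes of a liver RNA-seq table. The members were fixed by gene name rather than by a threshold on measured values, with earlier results of these data known. All 10 were present in the table, were detected in all 18 livers and received an adjusted p in every comparison.

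When hepatocytes fill with lipid and die, monocyte-derived macrophages gather around them and take up lipid and cell debris. TREM2, a surface receptor for lipids and apolipoproteins, signals through the adaptor TYROBP and drives a programme of lysosomal, lipid-handling and secreted proteins that accompanies fibrotic scar in steatohepatitis. Several of these genes are not restricted to macrophages. Osteopontin, the product of Spp1, is also made by bile duct cells, and the tetraspanins Cd9 and Cd63 and the fatty acid carrier Fabp5 are made by many cell types.

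The livers came from male wild-type C57BL/6 mice (C57BL/6J in the methods of the study). From 8 weeks of age these mice were kept at about 29 °C on a NASH diet, high in fat and fructose and containing cholesterol. Mice of all 3 groups shared this diet and temperature and were single-housed, and each group held 6 mice. The GDF15 group received recombinant GDF15, a stress cytokine that lowers food intake, by daily subcutaneous injection, the vehicle group received buffer, and the pair-fed group was offered the amount of food that GDF15-treated mice had eaten the day before. The dose given to the sequenced mice could not be settled from the labels and is not stated here. Total counts ranged from 16508864 to 25001486 in the GDF15 group, from 18059478 to 23215915 in the vehicle group and from 17180057 to 35301853 in the pair-fed group, and hepatocyte markers were abundant in every library, with 7 of them summing to between 1337400 and 2488580 normalized counts. Values below are counts divided by the size factor of the library, called normalized counts, and calls required both an adjusted p under 0.05 and a log2 fold change beyond 1 in either direction. In whole liver, fewer macrophages and less of a transcript per macrophage cannot be told apart.

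In GDF15-treated livers 8 of the 10 markers were lower and 1 was higher than in vehicle-treated livers. Against vehicle, Trem2, Gpnmb, Cd63, Spp1, Lgals3, Lpl, Itgax and Mmp12 were called lower and Fabp5 was called higher, whereas Cd9 was lower by adjusted p but not by the fold threshold. Of all genes tested, 5.66% were called in this comparison, 4.85% lower and 0.813% higher, and 30.1% passed the adjusted p alone, which all 10 members did. The median log2 fold change of the 10 members was -1.73, against 0.02 over all genes that averaged 10 or more normalized counts. For the 8 called lower, every GDF15 liver lay below every vehicle liver, as did 6.32% of all genes. Against pair-fed mice, the same 8 genes were called lower and 0 members were called higher, where 2.98% of all genes were called, 2.43% lower and 0.554% higher, and 24.0% passed the adjusted p alone. Every GDF15 liver lay below every pair-fed liver for 4 members, Cd63, Spp1, Itgax and Mmp12, as for 4.69% of all genes. The 2 GDF15 comparisons share the GDF15 livers and are therefore not independent. Between pair-fed and vehicle mice no member was called, nor was any other gene, and 0 of the 10 members had an unadjusted p under 0.05 in DESeq2, where 4.42% of all genes did. edgeR also called 0 members there, 9 in GDF15 against vehicle and 8 in GDF15 against pair-fed, beside 0%, 5.73% and 3.10% of the genes it tested.

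**Figure D1:**
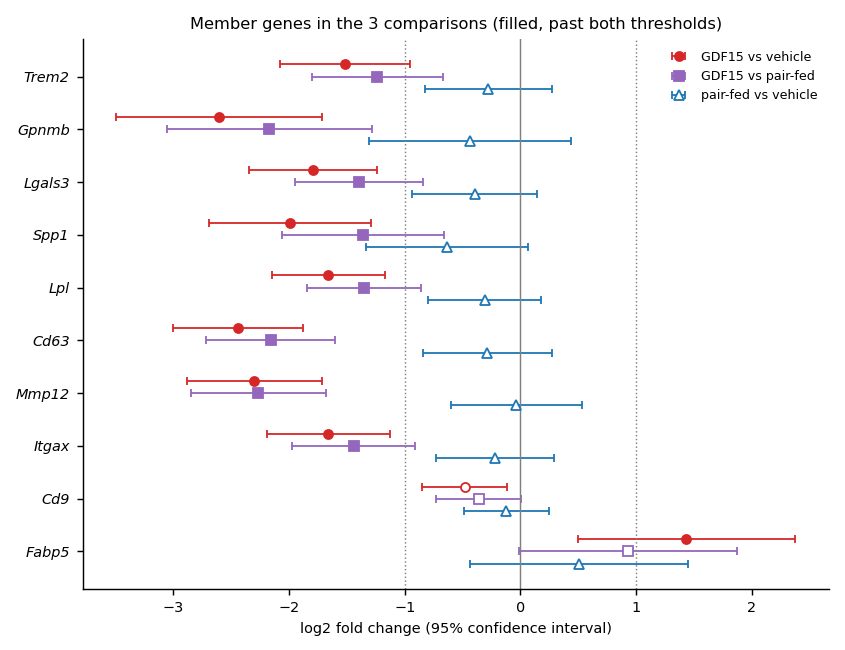
Log2 fold changes of the 10 members (horizontal axis, with 95% confidence intervals) in the 3 comparisons of 6 livers each; filled symbols passed both thresholds and dotted lines mark a log2 fold change of 1 in either direction. The 8 genes called lower lie at or below -1.24 in both GDF15 comparisons, Cd9 lies between -0.48 and 0 and Fabp5 lies at positive values, while all pair-fed intervals span 0.

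The stretches of DNA just upstream of the members' start sites are shown because the 8 genes that were called lower moved together. Promoter windows of 250 bases, taken from RefSeq on build GRCm38.p6, were found for 8 of the 10 genes, with 10 windows in all, and none was found for Lpl or Fabp5. For 5 of the genes called lower the windows are printed from 5′ to 3′, each ended before the first transcribed base of the annotations. Capitals mark matches to the AP-1 motif (TGANTCA, which reads the same on both strands) or to the PU.1 motif (GAGGAAG, searched on both strands).
Trem2, chr17:48346151-48346400, plus strand: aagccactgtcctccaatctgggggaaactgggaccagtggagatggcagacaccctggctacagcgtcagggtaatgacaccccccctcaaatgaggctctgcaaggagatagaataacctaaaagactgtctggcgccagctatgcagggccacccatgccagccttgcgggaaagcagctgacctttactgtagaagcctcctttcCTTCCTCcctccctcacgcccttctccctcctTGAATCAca
Gpnmb, chr6:49036268-49036517, plus strand: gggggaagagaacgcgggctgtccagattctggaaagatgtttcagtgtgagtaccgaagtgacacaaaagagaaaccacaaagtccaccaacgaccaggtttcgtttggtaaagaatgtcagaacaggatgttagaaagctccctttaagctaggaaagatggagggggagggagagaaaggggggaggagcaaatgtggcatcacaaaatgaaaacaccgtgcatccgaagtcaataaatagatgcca
Itgax, chr7:128129300-128129525, plus strand: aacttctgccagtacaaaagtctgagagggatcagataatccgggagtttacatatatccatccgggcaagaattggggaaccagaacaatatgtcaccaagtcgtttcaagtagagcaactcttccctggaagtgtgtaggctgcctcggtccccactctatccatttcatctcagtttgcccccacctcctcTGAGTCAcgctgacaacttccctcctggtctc
Mmp12, chr9:7344147-7344380, plus strand: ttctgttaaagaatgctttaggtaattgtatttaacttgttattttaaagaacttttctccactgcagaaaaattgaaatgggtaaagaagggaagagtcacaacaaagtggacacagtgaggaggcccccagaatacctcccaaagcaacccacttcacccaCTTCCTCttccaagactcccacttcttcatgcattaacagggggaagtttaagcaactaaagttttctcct
Spp1, chr5:104434861-104435110, plus strand: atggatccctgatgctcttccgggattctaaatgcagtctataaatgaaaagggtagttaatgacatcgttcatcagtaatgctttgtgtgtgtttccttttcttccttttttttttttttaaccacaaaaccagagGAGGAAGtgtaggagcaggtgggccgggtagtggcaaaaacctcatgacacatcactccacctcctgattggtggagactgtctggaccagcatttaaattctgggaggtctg

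PU.1 is a factor of myeloid cells, and its motif occurred in 4 of the 10 member windows (Trem2, Cd63, Spp1 and the first of Mmp12), against 10.6% of 32851 windows of all genes. The AP-1 motif occurred in 3 member windows (Trem2, Itgax and the second of Mmp12), against 6.75% of all. The M-box (TCACATG), a motif of the MITF and TFE factors that govern lysosomal genes, occurred in 1 member window, the second of Mmp12, against 3.50% of all, and the E-box (CACGTG) occurred in 0, against 6.02%. The Sp1 motif (GGGCGG) occurred in 2 member windows, those of Cd9 and Lgals3, against 32.7%, and no motif searched was found in the printed window of Gpnmb. These are matches of letters only, with no measurement of binding.

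Trem2, which lies on chromosome 17 (48346401-48354147, plus strand, GRCm38, as for all gene positions here), encodes the lipid-sensing receptor after which these cells are often named. Its normalized counts were 93.1, 130 and 176 (lowest, median and highest of 6) in vehicle livers, 66.8, 107 and 156 in pair-fed livers and 10.8, 47.7 and 73.3 in GDF15 livers. The GDF15 and vehicle ranges did not overlap, and 1 GDF15 liver lay inside the pair-fed range. Trem2 was 2.86-fold lower than in vehicle (log2 fold change -1.52 ± 0.29 SE, adjusted p = 2.85e-06) and 2.36-fold lower than in pair-fed livers (-1.24 ± 0.29, adjusted p = 0.000241). As few as 9 reads lay behind the lowest GDF15 value, so single livers in that group are imprecise.

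Gpnmb (chromosome 6, 49036546-49070929, plus strand), a glycoprotein of lysosomal and surface membranes, showed a steeper drop. Normalized counts were 138, 279 and 348 in vehicle, 78.3, 191 and 291 in pair-fed and 12.1, 38.4 and 78.5 in GDF15 livers. GDF15 livers fell below all vehicle livers, and 1 of them reached the lowest pair-fed liver. The decrease was 6.08-fold against vehicle (-2.60 ± 0.45, adjusted p = 2.53e-07) and 4.50-fold against pair-fed (-2.17 ± 0.45, adjusted p = 3.37e-05).

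Itgax (chromosome 7, 128129547-128150657, plus strand) encodes CD11c, an integrin chain of macrophages and dendritic cells. It was among the scarcest members, with 68.7, 142 and 206 normalized counts in vehicle, 83.3, 114 and 178 in pair-fed and 20.5, 44.7 and 62.0 in GDF15 livers. No GDF15 liver reached either control group. Itgax was 3.16-fold lower than in vehicle (-1.66 ± 0.27, adjusted p = 3.23e-08) and 2.72-fold lower than in pair-fed livers (-1.44 ± 0.27, adjusted p = 2.91e-06). A stretch of its transcript is at least 90% identical to its neighbour Itgad, whose mean was 2.03 normalized counts in vehicle livers, against 140 for Itgax.

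Spp1 (chromosome 5, 104435118-104441050, plus strand), encoding the secreted matrix protein osteopontin, was the most abundant member. Normalized counts were 2119, 4723 and 7908 in vehicle, 1961, 2713 and 5502 in pair-fed and 821, 1144 and 1834 in GDF15 livers. GDF15 livers lay below every other liver, although vehicle livers alone spanned a wide range. Spp1 was 3.97-fold lower than in vehicle (-1.99 ± 0.36, adjusted p = 6.60e-07) and 2.56-fold lower than in pair-fed livers (-1.36 ± 0.36, adjusted p = 0.00133). The pair-fed value lay between the others, at -0.63 ± 0.36 against vehicle, with an adjusted p of 0.998.

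Lgals3 (chromosome 14, 47367751-47386160, plus strand) encodes galectin-3, a sugar-binding protein that is secreted by macrophages and coats damaged lysosomes. Normalized counts were 163, 301 and 474 in vehicle, 133, 245 and 343 in pair-fed and 53.0, 96.3 and 139 in GDF15 livers. It was 3.46-fold lower than in vehicle (-1.79 ± 0.28, adjusted p = 9.33e-09) and 2.63-fold lower than in pair-fed livers (-1.40 ± 0.28, adjusted p = 1.66e-05), with 1 GDF15 liver inside the pair-fed range.

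Mmp12 (chromosome 9, 7344381-7369499, plus strand), the macrophage elastase that cleaves elastin, separated GDF15 from both control groups. Normalized counts were 119, 255 and 338 in vehicle, 157, 224 and 357 in pair-fed and 24.7, 43.9 and 89.3 in GDF15 livers. The decrease was 4.92-fold against vehicle (-2.30 ± 0.30, adjusted p = 1.67e-12) and 4.81-fold against pair-fed (-2.26 ± 0.30, adjusted p = 5.25e-12). Vehicle and pair-fed means, 246 and 241, were close together, and their difference had a 95% interval from -0.60 to 0.53 on the log2 scale.

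Lpl (chromosome 8, 68880491-68907448, plus strand) encodes lipoprotein lipase, which releases fatty acids from circulating triglyceride. Normalized counts were 484, 855 and 1253 in vehicle, 382, 698 and 1068 in pair-fed and 169, 268 and 388 in GDF15 livers. It was 3.16-fold lower than in vehicle (-1.66 ± 0.25, adjusted p = 1.82e-09) and 2.55-fold lower than in pair-fed livers (-1.35 ± 0.25, adjusted p = 2.07e-06). Adipocytes are the classical source of Lpl, and the adipocyte markers Adipoq, Plin1 and Retn together summed to between 0 and 6.82 normalized counts in every liver. Stretches of the long Lpl transcript share at least 90% identity with 28 other genes, 16 of them in the table, so the assignment of some reads is uncertain.

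The tetraspanins, membrane proteins that organize other receptors, split. Cd63 (chromosome 10, 128900989-128912822, plus strand), which sits in late endosomes and lysosomes, had 467, 993 and 1596 normalized counts in vehicle, 556, 844 and 1077 in pair-fed and 112, 191 and 237 in GDF15 livers. GDF15 livers lay below every other liver. Cd63 was 5.44-fold lower than in vehicle (-2.44 ± 0.29, adjusted p = 3.07e-15) and 4.47-fold lower than in pair-fed livers (-2.16 ± 0.29, adjusted p = 7.37e-12).

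Cd9 (chromosome 6, 125460266-125494791, minus strand), a tetraspanin of the cell surface, had 601, 777 and 990 normalized counts in vehicle, 526, 688 and 991 in pair-fed and 392, 517 and 860 in GDF15 livers. The 3 ranges overlapped. Against vehicle it was 1.40-fold lower (-0.48 ± 0.19, adjusted p = 0.0341), and against pair-fed livers the change was -0.36 ± 0.19 with an adjusted p of 0.142. The value against vehicle no longer had an adjusted p under 0.05 when any of 8 livers was left out, Vehicle 1, 2, 4 or 5 or GDF15 1, 2, 3 or 6, where it ranged from 0.0523 to 0.105.

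Fabp5 (chromosome 3, 10012548-10016607, plus strand), a cytosolic carrier of fatty acids, went the other way. Normalized counts were 428, 482 and 929 in vehicle, 459, 615 and 1536 in pair-fed and 400, 852 and 3199 in GDF15 livers. The GDF15 range enclosed the vehicle range, and the rise came from 2 livers, GDF15 4 and 6, at 3135 and 3199. Fabp5 was 2.70-fold higher than in vehicle (1.44 ± 0.48, adjusted p = 0.0121), and the change against pair-fed livers was 0.93 ± 0.48 with an adjusted p of 0.138. Without GDF15 4 the log2 fold change against vehicle was 1.09 (adjusted p = 0.0648), without GDF15 6 it was 1.07 (adjusted p = 0.0701), and without both, a setting chosen after seeing the data, it was 0.29 (adjusted p = 0.573). Over the 22 alternatives the adjusted p ranged from 0.000431 to 0.893. Without PairFed 4 the change against pair-fed livers was 1.23 (adjusted p = 0.0418, the lowest of its 24 alternatives, which reached 0.812).

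**Figure D2:**
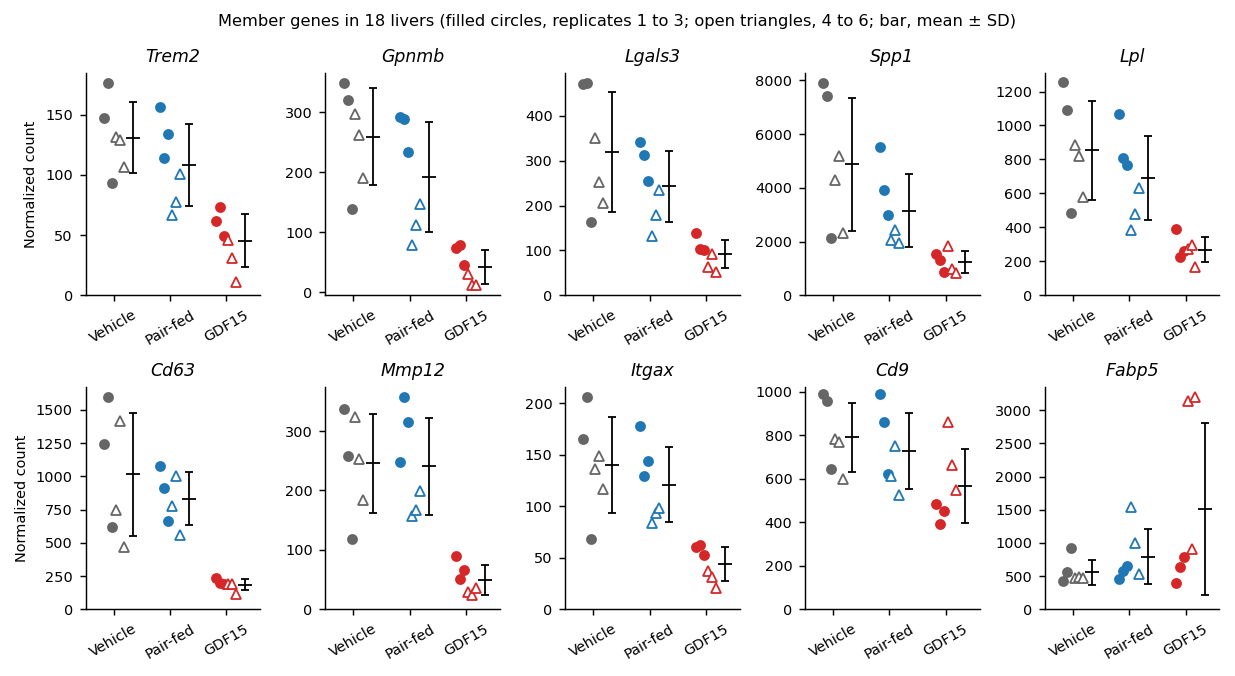
Normalized counts (vertical axes, starting at 0) of the 10 members in each of 18 livers by group; filled circles are replicates 1 to 3, open triangles are replicates 4 to 6, and bars give the mean and SD of 6 livers. GDF15 livers lie below all vehicle livers for the 8 genes called lower, with 1 liver inside the pair-fed range for Trem2, Gpnmb, Lgals3 and Lpl, overlap the controls for Cd9, and reach 3135 and 3199 in 2 livers for Fabp5.

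Levels of different genes were compared as CPM per kilobase of transcript. In vehicle livers the order was Spp1 (179 ± 97.4, SD, n = 6), Cd63 (49.7 ± 24.3), Cd9 (33.0 ± 8.17), Fabp5 (28.6 ± 8.35), Lgals3 (19.2 ± 8.84), Lpl (10.7 ± 4.14), Mmp12 (9.59 ± 3.55), Trem2 (6.25 ± 1.67), Gpnmb (4.35 ± 1.52) and Itgax (2.74 ± 1.01). Neighbours from Cd63 to Itgax lay within about the sum of their SDs of each other, and Spp1 exceeded Cd63 by slightly more than that sum, with ranges that still overlapped. In GDF15 livers Fabp5 had a mean of 67.5 ± 55.6, raised by GDF15 4 and 6, and Spp1 a mean of 39.1 ± 12.3, with medians of 40.2 and 37.1 that did not differ beyond their spread, and Gpnmb dropped to the last place (0.627 ± 0.435).

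Livers with the same set of numbers differed within groups. In the GDF15 group, replicates 4 to 6 lay below replicates 1 to 3 for 6 members (Trem2, Gpnmb, Cd63, Lgals3, Itgax and Mmp12) and above them for 2 (Cd9 and Fabp5). In the pair-fed group they lay below for 7 members (Trem2, Gpnmb, Spp1, Lgals3, Lpl, Itgax and Mmp12) and above for 0, and in the vehicle group the ranges of all 10 members overlapped. Such separations were not limited to the members. Over all genes, replicates 4 to 6 lay below replicates 1 to 3 for 10.6% and above for 9.57% in the GDF15 group, for 9.22% and 8.90% in the pair-fed group and for 3.93% and 3.24% in the vehicle group. Mean Trem2 was 61.3 in GDF15 1 to 3 and 29.4 in GDF15 4 to 6, and 135 and 81.7 in the pair-fed sets. The libraries numbered 4 to 6 were the larger ones among pair-fed livers, with totals of at least 25047723, and the smaller ones among GDF15 livers, with totals of at most 19108435. The labels name no batch, and the part that depth or handling played in these differences was not tested.

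The contrast with pair-fed livers depended on which of these livers were used. With only replicates 1 to 3 of every group, 8 members were called lower, and with only replicates 4 to 6, 7 were, Spp1 having a log2 fold change of -0.82 (adjusted p = 0.157). When all GDF15 livers were set against the 3 larger pair-fed libraries, 3 members were called (Cd63, Itgax and Mmp12) and 5 had an adjusted p under 0.05. In that setting Trem2 had a log2 fold change of -0.84 (adjusted p = 0.0789, where the 24 alternatives ranged from 3.07e-06 to this value) and Gpnmb -1.40 (adjusted p = 0.0532, from 1.47e-10). Spp1 was at -0.81 (adjusted p = 0.163, the highest of its 24 alternatives, from 1.62e-06), while Lgals3 and Lpl had log2 fold changes of -0.98 and -0.88 (adjusted p = 0.0284 and 0.0152), short of the fold threshold. Leaving out GDF15 4 and 6 together, a setting chosen after seeing the data, gave 7 members called, with Trem2 at -0.99 (adjusted p = 0.00124).

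**Figure D3:**
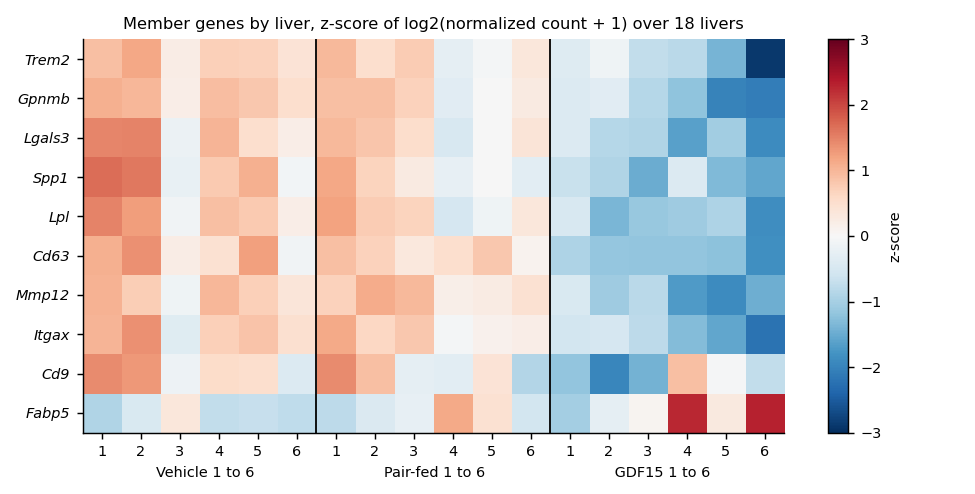
Levels of the 10 members (rows) in 18 livers (columns, numbered within each group), as z-scores of log2(normalized count + 1) over all livers; red is above and blue below the mean of a gene. The 8 genes called lower are below their means in the GDF15 livers, and 7 of them are lower in pair-fed 4 to 6 than in pair-fed 1 to 3, whereas Fabp5 is deepest red in GDF15 4 and 6.

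The 8 genes called lower also moved together from liver to liver. After the group mean was taken from each log2 value, Pearson's r for their 28 pairs over 18 livers ranged from 0.39 to 0.91, with a median of 0.73 and a median Spearman's rho of 0.71. The closest pair was Lgals3 and Lpl (0.91). Cd9 was only loosely tied to these 8 genes (median r 0.21, from -0.03 to 0.70), and Fabp5 was inversely related to all of them (from -0.77 to -0.29). These coefficients describe genes read from the same libraries, and no test was made of them.

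Among 10755 genes outside the lists with a mean of at least 50 normalized counts, those most like Trem2 over 18 livers were H2-Eb1 (r = 0.96), Bcl2a1b (0.95), Cyba (0.95), Cd74 (0.95), Specc1 (0.94) and Clec12a (0.94). H2-Eb1 and Cd74 encode a class II antigen presentation chain and the invariant chain, and both were lower in GDF15 livers, by -1.11 and -1.01 on the log2 scale against vehicle (adjusted p = 6.82e-07 and 1.45e-06). After the group means were removed, genes near the top of the ranking included Ncf1 (0.91), H2-Eb1 (0.90), Cd207 (0.90), Pla2g7 (0.89) and Ms4a6c (0.89). For Fabp5, a ranking added after its values were seen, the nearest over 18 livers were Pmvk (0.93), Lss (0.91), Acss2 (0.91), Acat2 (0.91), Dhcr7 (0.90) and Acpp (0.89). Because Trem2 and Fabp5 were inversely related over 18 livers (r = -0.75), the 2 sets of nearest genes could not overlap.

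Most genes of the TREM2 signalling chain were lower in GDF15 livers. Of 10 genes, 9 were lower against vehicle by adjusted p and 0 were higher, where 15.8% of all genes were lower and 14.3% higher, and 8 were lower against pair-fed livers, where 12.2% of all genes were lower and 11.8% higher. The list's median log2 fold change was -0.85 against vehicle and -0.69 against pair-fed, and 1 gene, Lat2, an adaptor, also passed the fold threshold against vehicle (-1.17 ± 0.26, adjusted p = 9.51e-05). Tyrobp, the adaptor that carries the TREM2 signal, changed by -0.87 ± 0.20 (adjusted p = 0.000100) and -0.69 ± 0.20 (adjusted p = 0.00328) in the 2 comparisons. Syk, the kinase recruited by Tyrobp, changed by -0.85 ± 0.17 (adjusted p = 1.38e-05) and -0.93 ± 0.17 (adjusted p = 2.05e-06), and Vav1, an exchange factor, by -0.76 ± 0.18 and -0.64 ± 0.18. Hcst, an alternative adaptor with a mean of 9.18 normalized counts, did not pass.

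Further markers of these macrophages gave a similar picture. Of 15, 13 were lower and 0 higher by adjusted p in both GDF15 comparisons, and 8 and 7 of them passed the fold threshold as well, with medians of -1.01 and -0.92. Lgals1, galectin-1, had a mean of 2571 ± 306 (SD, n = 6) in vehicle, 2254 ± 364 in pair-fed and 765 ± 233 in GDF15 livers, a log2 fold change of -1.75 ± 0.16 against vehicle (adjusted p = 5.45e-23). Ms4a7, a marker of monocyte-derived macrophages, changed by -2.07 ± 0.32 (adjusted p = 6.82e-09) and -1.33 ± 0.33 (adjusted p = 0.000526). Cstb, an inhibitor of cathepsins, and Vat1 changed by -0.84 and -0.56 against vehicle. Tmem37 and Colec12 did not pass.

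Genes of lysosomes and lipid handling were divided. Of 18, 10 were lower and 0 higher by adjusted p in each GDF15 comparison, and Ctsk and Fabp4 passed both thresholds in each. Fabp4, a fatty acid carrier of macrophages and fat cells and a relative of Fabp5, went opposite to Fabp5, with 368 ± 103 normalized counts in vehicle, 322 ± 117 in pair-fed and 158 ± 19.4 in GDF15 livers (log2 fold change -1.22 ± 0.21 against vehicle, adjusted p = 1.05e-07). Plin2, a coat protein of lipid droplets, and Cd36, a fatty acid receptor, were lower by -0.79 each against vehicle (adjusted p = 1.25e-10 and 2.89e-08), and Ctsz, a cathepsin, by -0.41 (adjusted p = 1.15e-07). Hepatocytes also express several of these genes, among them Apoe, Lamp1 and Ctsb.

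Partners of the member proteins changed with them in part. Of 18 binding partners and cofactors, 8 were lower and 3 higher against vehicle by adjusted p, and 7 and 1 against pair-fed livers. Cd44, a receptor for osteopontin, changed by -1.21 ± 0.20 (adjusted p = 1.06e-07) and Itgb2, the integrin chain that pairs with CD11c, by -0.92 ± 0.20 (adjusted p = 3.36e-05). Timp1, an inhibitor of matrix proteases, was reduced from 44.0 ± 20.3 to 5.30 ± 4.51 normalized counts (-2.99 ± 0.48, adjusted p = 2.25e-08). Apoc2, the cofactor that activates lipoprotein lipase and is made by hepatocytes, changed by -0.72 ± 0.10 (adjusted p = 6.63e-12). The 3 higher against vehicle were Itgb3 (0.48 ± 0.18, adjusted p = 0.0223), Angptl8 (0.89 ± 0.37, adjusted p = 0.0484) and Apoc3 (0.25 ± 0.07, adjusted p = 0.00329). Apoc3 was also the 1 higher against pair-fed livers.

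Relatives of the members did not all follow. Of 27 genes of the same families, 10 were lower and 2 higher by adjusted p in each GDF15 comparison. Mmp13, a collagenase, was lower by -2.04 ± 0.33 against vehicle (adjusted p = 2.25e-08), and the tetraspanins Cd81 and Cd151 by -0.40 ± 0.06 and -0.33 ± 0.06 (adjusted p = 4.03e-09 and 1.30e-06). Lipc, the hepatic lipase of hepatocytes, was higher where Lpl was lower, with 2100 ± 227 normalized counts in vehicle and 3447 ± 287 in GDF15 livers (0.72 ± 0.09, adjusted p = 2.97e-14).

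Most markers of macrophages in general were lower in GDF15 livers, while most of those of resident Kupffer cells did not pass the test. Of 8 pan-macrophage genes, 6 were lower and 1 was higher against vehicle by adjusted p, with a median of -0.66, and 5 were lower and 1 was higher against pair-fed livers. Csf1r, the receptor for the macrophage growth factor, changed by -0.55 ± 0.18 (adjusted p = 0.00827), Adgre1, which encodes F4/80, by -0.65 ± 0.21 (adjusted p = 0.00945) and Cd68, a lysosomal glycoprotein, by -0.92 ± 0.19 (adjusted p = 9.86e-06). Cd14, a receptor for bacterial lipopolysaccharide, changed by -1.75 ± 0.29 (adjusted p = 6.22e-08). Of 9 Kupffer cell genes, 1 was lower (Cd5l, -0.43 ± 0.18, adjusted p = 0.0496) and 1 was higher (Cd163, 1.89 ± 0.53, adjusted p = 0.00225) against vehicle, with a list median of 0.13. Clec4f, which defines resident Kupffer cells, had 1072 ± 246 normalized counts in vehicle and 1190 ± 343 in GDF15 livers (adjusted p = 0.550), and Timd4 had 26.6 ± 19.6 and 54.5 ± 28.9 (adjusted p = 0.0646).

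Set against Csf1r in the same liver, the 8 members still differed between groups. Per 100 counts of Csf1r there were 11.3, 14.1 and 17.7 counts of Trem2 (lowest, median and highest) in vehicle, 8.77, 12.6 and 15.8 in pair-fed and 2.72, 6.86 and 12.5 in GDF15 livers. The mean log2 ratio in GDF15 livers differed from that in vehicle livers by -1.15 for Trem2 and by values from -2.34 (Gpnmb) to -1.07 (Lpl) across the 8 genes. With Adgre1 or Cd68 as the denominator the difference for Trem2 was -1.08 or -0.79. With Csf1r the difference was 0.06 for Cd9 and 1.60 for Fabp5. The ratio is a description of unequal change within libraries and was not tested.

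**Figure D4:**
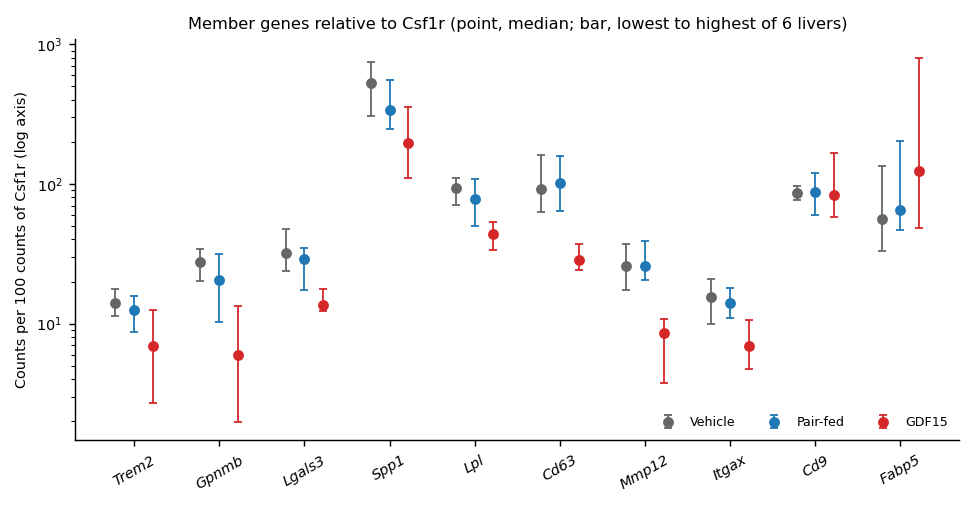
Counts of each member per 100 counts of Csf1r in the same liver (vertical log axis), with the median as a point and the lowest to highest of 6 livers as a bar, by group. GDF15 medians lie below both controls for the 8 genes called lower, such as 6.86 against 14.1 in vehicle for Trem2, and not for Fabp5.

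Markers of some other liver cells differed as well. Of 6 cholangiocyte markers, 5 were lower against vehicle by adjusted p (median -1.02) and 0 against pair-fed livers, and their sum ranged from 314 to 821 normalized counts in vehicle, from 283 to 612 in pair-fed and from 220 to 373 in GDF15 livers. Epcam changed by -1.22 ± 0.33 against vehicle (adjusted p = 0.00134) and by -0.60 ± 0.33 against pair-fed livers (adjusted p = 0.165), and Krt19 by -1.03 ± 0.35 (adjusted p = 0.0137) and -0.25 ± 0.35 (adjusted p = 0.643). After removal of the group means, Spp1 had an r of 0.91 with Epcam, 0.84 with Krt19 and 0.83 with the collagen gene Col1a1 over 18 livers. Its r was 0.58 with Csf1r, 0.57 with Adgre1, 0.69 with Cd68 and 0.65 with Tyrobp. Epcam also had an r of 0.75 with Lpl and 0.75 with Itgax. These values describe genes of the same libraries. The part of bile duct cells in the change of Spp1 was not tested.

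Of 8 stellate cell and fibroblast genes, 7 were lower against vehicle and 6 against pair-fed livers, and their sum ranged from 8605 to 14922 normalized counts in vehicle and from 4198 to 6292 in GDF15 livers. Col1a1, a chain of scar collagen, changed by -2.51 ± 0.32 against vehicle (adjusted p = 2.88e-13). Of 5 proliferation genes, 5 and 4 were lower, among them Mki67 (-2.08 ± 0.26, adjusted p = 4.43e-13). Hepatocyte markers were higher, 6 of 7 in both GDF15 comparisons, with Cps1 changing by 1.06 ± 0.15 against vehicle (adjusted p = 3.19e-10). Of the other leukocyte lists, 2 of 6 monocyte genes were lower and 1, Fn1, which hepatocytes also make, was higher, 2 of 6 dendritic cell genes (Ccr7 and Flt3), 1 of 5 neutrophil genes (Csf3r) and 1 of 9 lymphocyte genes (Ms4a1) were lower, and 1 lymphocyte gene (Cd4) was higher against vehicle. In sinusoidal endothelium 1 of 6 genes, Lyve1, was lower and 1, Clec4g, was higher against vehicle. Of all genes, 15.8% were lower and 14.3% higher against vehicle by adjusted p, so 1 gene of a list of 5 to 9 is near that share. No gene of any list passed between pair-fed and vehicle livers.

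**Figure D5:**
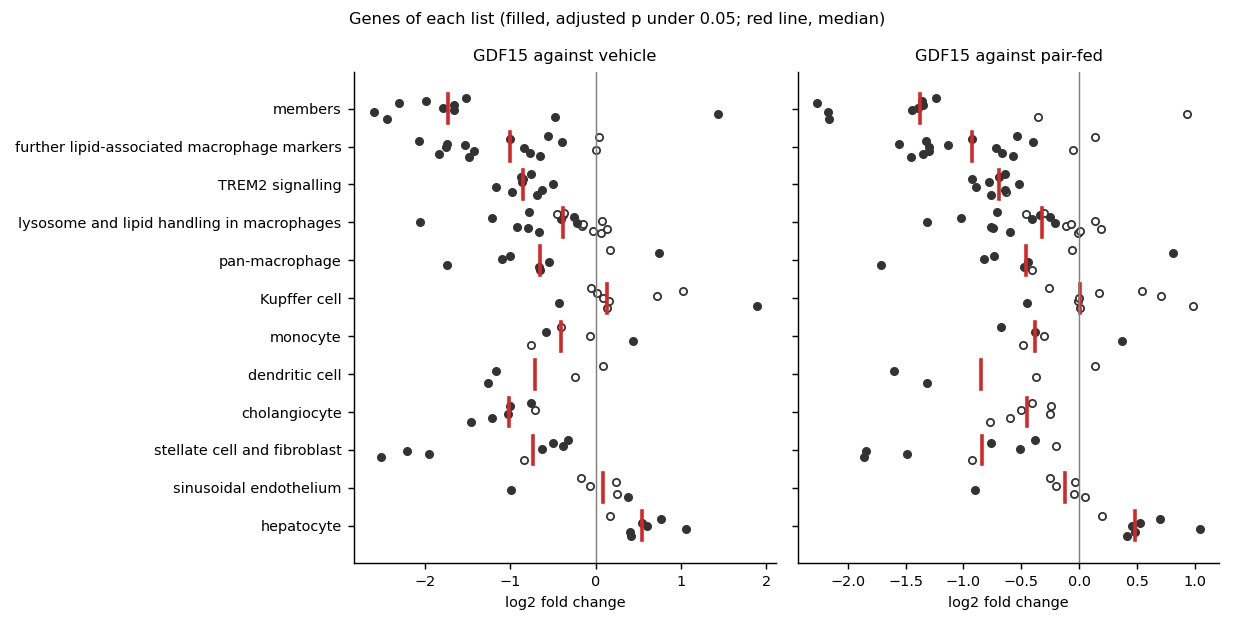
Log2 fold changes (horizontal axes) of single genes with a mean of at least 10 normalized counts, by list, in GDF15 against vehicle (left) and against pair-fed (right); filled points have an adjusted p under 0.05 and red lines are list medians. The members have the lowest median, -1.73 and -1.38, among the lists drawn, Kupffer cell genes centre near 0 and hepatocyte genes lie at positive values.

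No member passed a test between pair-fed and vehicle livers, although single pair-fed livers left the vehicle range. For Trem2, Gpnmb, Spp1 and Lpl, 2 of 6 pair-fed livers lay below every vehicle liver, and for Fabp5 2 lay above. For Cd9 and Lgals3 1 lay below, and for Cd9 and Mmp12 1 lay above. Of the 10 members, 9 had a lower fitted level than in vehicle, with a median log2 difference of -0.28, and each adjusted p was 0.998. The 95% interval of the difference ran from -0.82 to 0.27 for Trem2, from -1.31 to 0.44 for Gpnmb and from -1.33 to 0.07 for Spp1. For Gpnmb and Spp1 these intervals include a fold change past the threshold, so a decrease of that size is not excluded.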

How the data were processed

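RNA was sequenced from 18 livers, 6 per group, with a directional library kit. Per the labels' processing notes, the authors trimmed reads with Trim Galore and quantified them with Salmon (the notes also name mm10 and DESeq2), and deposited estimated counts by gene symbol as rounded whole numbers without normalization. Versions and the strand setting of the counting are not given in the sources used here. The lowest row total was 5, and all 18 columns were used. Groups and replicate numbers came from the sample titles, and p-values measure the spread between mice.

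DESeq2 (version 1.42.0, under R 4.3.3) was run over all 18 samples and all 16245 genes, with group as the only factor, size factors by median of ratios, the Wald test and Benjamini-Hochberg adjustment. Genes with an adjusted p under 0.05 and an absolute log2 fold change above 1 were called. Fold changes were not shrunken. The alternatives were edgeR (version 4.0.16, quasi-likelihood test) on 12992 genes, TMM normalization, keeping genes with 10 or more counts in 6 or more samples, switching independent filtering off, fitting 12 samples, the replicate number as a block, thinned libraries, subsets of libraries and leaving out each sample. The fits were tested on simulated counts. The smallest signal taken as detected was 3 counts, between 0.0850 and 0.182 CPM over the libraries, which covers counting error only.

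The members and lists were chosen with earlier results of these data known. Apart from the members, named genes were up to 4 of each list with the lowest adjusted p against vehicle and a mean of at least 10 normalized counts, and fixed defining markers such as Csf1r, Adgre1, Cd68, Clec4f, Krt19 and Tyrobp. Ctsk, Hcst, Tmem37, Colec12, H2-Eb1, Cd74, Itgad and genes that make up a count of 5 or fewer were named after their values were seen or by likeness to Trem2. Gene positions came from GENCODE on GRCm38, the assembly also called mm10. Xcr1, Ly6g and Lep of the lists were not in the table. Cd9, Spp1 and Mmp12 overlap other annotated genes, none of which is in the table.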

Additional observations from a re-analysis of the deposited data

Results flagged for a closer look

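Of 30 sets of 6 livers (10 genes in 3 groups), 1 held a liver far from the others by Dixon's test, where chance alone would give about 1.5. The liver was Vehicle 3, with 929 normalized counts of Fabp5 against 428 to 565 in the other vehicle livers, a gap of 0.727 of the range of the group, above the 95% critical value. The same liver had the lowest vehicle values of Trem2 (93.1), Gpnmb (138), Spp1 (2119), Lgals3 (163), Lpl (484), Itgax (68.7) and Mmp12 (119). Without it, the log2 fold change of Fabp5 in GDF15 against vehicle was 1.64 (adjusted p = 0.00528).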

How the results depend on the processing

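Counts of members called were 8 to 9 in GDF15 against vehicle and 0 in pair-fed against vehicle under every alternative run, and when each sample was left out in turn they were 8 to 9 against vehicle and 8 to 9 against pair-fed livers. Against pair-fed livers the count moved to 3 called and 5 past the adjusted p when only the 3 larger pair-fed libraries were used, and it was 7 with replicates 4 to 6 or without GDF15 4 and 6. The cause was not tested. Of 690 refitted log2 fold changes of members, 661 kept their direction and their call by both thresholds together, 10 lost a call, 1 gained one and 18 changed sign. Of the 661, 12 crossed the adjusted p threshold alone, all of them for Cd9.

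Changes of sign fell on values that had not been called, except that of Fabp5. Fabp5 was -0.069 with replicates 1 to 3 in GDF15 against vehicle, and -0.21 against pair-fed livers without GDF15 4 and 6 and -0.18 in pair-fed against vehicle with replicates 1 to 3. Cd9 was 0.14 against pair-fed livers with replicates 4 to 6. In pair-fed against vehicle, the 3 smaller pair-fed libraries gave 0.045 for Trem2, 0.068 for Gpnmb, 0.061 for Cd9, 0.046 for Lpl, 0.10 for Itgax and 0.32 for Mmp12, and replicates 1 to 3 gave 0.015 for Gpnmb, 0.035 for Itgax and 0.37 for Mmp12. Leaving out single samples moved Mmp12 in that comparison from -0.18 to 0.077, above 0 without Vehicle 1 or 4 or PairFed 4, 5 or 6.

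The main fit did not treat livers of the same replicate number as pairs. Deviations of same-numbered livers from their group means had correlations from -0.191 to 0.271 over 13207 genes in GDF15 against vehicle, from -0.140 to 0.179 against pair-fed livers and from -0.0173 to 0.501 in pair-fed against vehicle, and 1 of 6 livers correlated best with its own number in each. Mean correlations of same-numbered livers were 0.0117, 0.0252 and 0.161 in these comparisons, against -0.00109, -0.00518 and -0.0327 for other numbers. With the replicate block, 9, 8 and 0 members were called, as without it. Depth limits Trem2, Gpnmb, Itgax and Mmp12 in GDF15 livers, where single libraries held as few as 9, 10, 17 and 19 counts.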
